A study of Mus musculus with 6 samples.

Results

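The interleukin-1 (IL-1) family transcripts described here were 10 genes chosen by symbol, the ligands Il1a, Il1b, Il33 and Il18, the antagonists Il1rn and Il18bp, the receptor chains Il1r1, Il1rap and Il1rl1, and the decoy receptor Il1r2. They were 10 of the 46603 gene identifiers in the deposited tables, and all 10 had enough counts to be among the 15226 genes tested. They were measured in cultures of EGCs (enteric glial cells, which support the neurons of the gut). The cells were grown from neurospheres, floating clusters of neural progenitors, that came from total intestine of E14.5 embryos of the strain C57BL/6J. The study compared 3 control libraries without an added agent with 3 libraries from EGCs given lipopolysaccharide (LPS, a bacterial wall component) at 100 ng/ml for 12 h, and asked which factors EGCs make that can act on immune cells. No allele or transgene was named for either group, and the sources used here do not say whether the replicates were separate cultures or animals, so the p-values measure the spread between these libraries, which may be technical.

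Totals lay between 18775316 and 23664312 counts per library. The 8 glial markers given here, among them Sox10 and Erbb3, were detected in every library, with summed levels of 347 to 481 CPM (counts per 1e6 of normalized library size) in control and 318 to 336 CPM in LPS, so that the sums did not overlap. Of the 8, Fabp7 was called higher in LPS and S100b and Cdh19 lower, where 9.09% of all genes tested were called higher and 6.71% lower. These glial calls were lost without control replicate 1 or 2 or LPS replicate 2 (adjusted p = 0.0538 to 0.163), those of S100b and Cdh19 also without LPS replicate 1 and that of Cdh19 without LPS replicate 3. The cultures also held transcripts of other cell types. The 7 mesenchymal markers summed to 15500 to 16122 CPM in control and 15085 to 15730.1 CPM in LPS. Within that list Dcn (log2 fold change 0.90, adjusted p = 0.0118 by edgeR) and Pdgfra (0.50, adjusted p = 0.0114) were called higher, beside 9.09% of all genes tested. Both calls were lost without any 1 of control replicates 1 and 2 and LPS replicates 1 and 2 (adjusted p = 0.0513 to 0.0745). The 12 macrophage markers summed to 4107, 5321 and 12623 CPM in control and to 4044, 5240 and 20205 CPM in LPS. Replicate 3 therefore stood apart from replicates 1 and 2 in both groups, and called values named below that moved by over 1.5 times without its control or its LPS library are given both ways. Sets of 3 values below are in the order of replicates 1, 2 and 3. In these bulk libraries, fewer cells of a type and less RNA per cell cannot be told apart, and neither can the cell type that made a transcript.

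IL-1α and IL-1β are alarm cytokines that bind the receptor IL-1R1, which then recruits the accessory chain IL-1RAP and signals through MyD88 and the IRAK kinases to NF-κB. IL-33 uses the receptor ST2, encoded by Il1rl1, with the same accessory chain, whereas IL-18 has its own receptor pair. The family is held in check at several steps: the IL-1 receptor antagonist (Il1rn) occupies IL-1R1 without recruiting the accessory chain, the decoy IL-1R2 binds IL-1 but does not signal, and IL-18 binding protein (Il18bp) captures IL-18. IL-1β and IL-18 are made as precursors that caspase-1 cuts, while IL-1α and IL-33 are active when released from damaged cells. Enteric glia are known to respond to IL-1 in the inflamed gut wall.

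The start regions of the members that the results turn on are shown first, because 8 of the 10 genes rose together. They are RefSeq windows of assembly GRCm38.p6 from 250 bases before to 50 bases after an annotated start, written 5′ to 3′ on the strand of the gene. Capitals mark letters inside a match to any of 6 searched motifs, on either strand: the C/EBP motif TTNNGNAA, the AP-1 motif TGANTCA, the GAS motif TTCNNNGAA, the TATA box TATAAA, the NF-κB motif (GGG and CC with 5 bases of any kind between them) and the ISRE motif (TTTC repeated after 2 bases of any kind). Matches of different motifs can overlap. A position is that of the first base of a match, counted along the strand of the gene with the start base as 1. Of all 32851 mouse windows, 50.8% held the NF-κB letters, 40.7% C/EBP, 7.81% AP-1, 8.3% GAS, 3.44% ISRE and 13.6% TATA, so the first 2 are common by letters alone. A match is a description of letters and not a bound site.
Il1a at chr2:129309923-129310222, minus strand: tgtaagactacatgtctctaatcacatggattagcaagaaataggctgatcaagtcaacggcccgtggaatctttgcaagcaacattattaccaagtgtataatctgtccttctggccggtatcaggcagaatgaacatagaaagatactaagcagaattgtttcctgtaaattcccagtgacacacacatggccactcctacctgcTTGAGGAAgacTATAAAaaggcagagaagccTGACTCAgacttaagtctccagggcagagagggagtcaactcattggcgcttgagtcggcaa
Il1b at chr2:129371090-129371389, minus strand: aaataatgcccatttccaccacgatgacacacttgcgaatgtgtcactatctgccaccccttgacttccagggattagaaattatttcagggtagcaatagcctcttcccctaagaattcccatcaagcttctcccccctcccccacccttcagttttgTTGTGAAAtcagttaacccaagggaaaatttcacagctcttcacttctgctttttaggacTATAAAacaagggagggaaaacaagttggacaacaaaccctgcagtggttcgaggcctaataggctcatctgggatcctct
Il1rn, upstream start, at chr2:24336610-24336909, plus strand: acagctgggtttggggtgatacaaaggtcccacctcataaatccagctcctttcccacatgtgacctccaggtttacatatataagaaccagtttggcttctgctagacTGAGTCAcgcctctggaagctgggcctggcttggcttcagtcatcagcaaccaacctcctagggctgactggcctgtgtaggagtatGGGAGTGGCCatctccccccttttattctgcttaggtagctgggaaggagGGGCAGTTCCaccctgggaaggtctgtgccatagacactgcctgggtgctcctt
Il1rn, middle start, at chr2:24345041-24345340, plus strand: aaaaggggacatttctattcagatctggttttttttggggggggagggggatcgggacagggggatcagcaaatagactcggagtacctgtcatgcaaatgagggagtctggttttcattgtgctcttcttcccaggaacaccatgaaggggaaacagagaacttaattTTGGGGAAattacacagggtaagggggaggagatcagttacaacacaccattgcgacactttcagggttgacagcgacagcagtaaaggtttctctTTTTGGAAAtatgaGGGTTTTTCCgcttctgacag
Il1rap at chr16:26581455-26581754, plus strand: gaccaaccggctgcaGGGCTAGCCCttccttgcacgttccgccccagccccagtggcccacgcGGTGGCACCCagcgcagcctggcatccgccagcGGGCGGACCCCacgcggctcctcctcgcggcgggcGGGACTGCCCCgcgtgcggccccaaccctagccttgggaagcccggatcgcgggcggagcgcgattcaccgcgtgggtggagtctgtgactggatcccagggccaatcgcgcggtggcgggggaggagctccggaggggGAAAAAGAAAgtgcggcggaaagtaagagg
Il33, downstream start, at chr19:29945540-29945839, plus strand: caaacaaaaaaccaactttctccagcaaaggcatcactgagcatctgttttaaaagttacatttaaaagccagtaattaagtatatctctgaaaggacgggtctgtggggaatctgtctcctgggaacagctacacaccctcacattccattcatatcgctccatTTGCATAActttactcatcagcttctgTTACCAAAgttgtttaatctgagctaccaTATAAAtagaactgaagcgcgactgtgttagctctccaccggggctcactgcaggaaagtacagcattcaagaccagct

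Il1a and Il1b both held TATA letters just before the start (first base at -32 and -31) and a C/EBP match further upstream (-43 and -91), and Il1a also held AP-1 letters at -12. Il1rn has 3 windows, of which the upstream and the middle start are shown. The upstream start held AP-1 letters at -141 and NF-κB letters at -54 and -4, and the middle start held C/EBP letters at -81, 16 and 17 and NF-κB letters at 30. The window of the third start overlaps the middle one, shares these 4 matches and held TATA letters at 15. The Il1rap window had no TATA match and held most of the NF-κB matches of the family, several of them read on both strands at the same bases, with ISRE letters at 21. Il33, which was not called, held TATA letters at -29 of its downstream start and 2 C/EBP matches. Over all 15 windows of the 10 members, 5 held the NF-κB letters and 11 the C/EBP letters, the overlapping windows of Il1rn included.

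With LPS, 8 of the 10 family transcripts rose, 0 fell and 2 were not called. A call here is an adjusted p under 0.05 in edgeR's quasi-likelihood test with Benjamini-Hochberg adjustment over all 15226 genes, among which 9.09% were called higher and 6.71% lower. That split of 1384 higher and 1022 lower became 1050 and 1589 with upper-quartile factors and 986 and 2054 with library size alone, and 8 members were called higher under each of these scalings (6.9% and 6.48% of all genes), with RLE factors (9.44%) and without a filter (4.48%). The count of 0 lowered members was also 0 at an unadjusted p under 0.05 and with DESeq2, the edgeR exact test and limma-voom, which called 8 members higher each (13.7%, 9.39% and 8.21% of all genes) and had 11%, 7.99% and 6.05% of all genes lower. The same 8 had no overlap between groups, with every LPS library above every control library, which held for 19.3% of all genes tested. The median log2 fold change was 2.77 over the 10 members and -0.02 over all genes tested. Of the 8 called members Il1b and Il1a had the largest fitted changes and Il1r1 the smallest. The order of those between them depended on single libraries, since Il1rn was above Il1r2 and Il1rl1 with all libraries (3.41 against 2.99 and 2.55 as log2 fold changes) and below them without LPS replicate 3 (2.53 against 3.28 and 2.59).

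**Figure D1:**
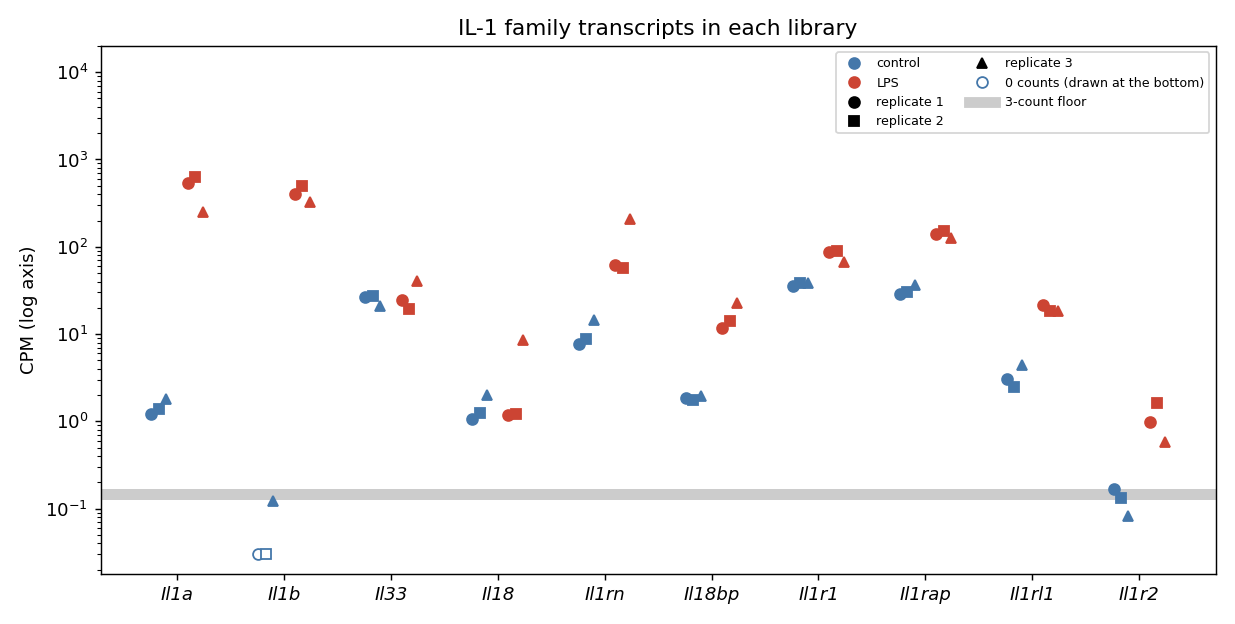
Level of each IL-1 family transcript (CPM, log axis) in the 3 control (blue) and 3 LPS (red) libraries, with a symbol shape for each replicate; open symbols at the bottom are libraries with 0 counts and the grey band is the level of 3 counts. Il1a and Il1b run from under 2 CPM in control to the top of the family in LPS, whereas the groups overlap for Il33 and Il18.

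Il1a, which encodes IL-1α, lies at chr2:129299610-129309972 on the minus strand (ENSMUSG00000027399, 7 exon blocks). It was at 1.23, 1.37 and 1.82 CPM in control and at 541, 625 and 253 CPM in LPS. Every LPS library was far above every control, and LPS replicate 3 was the lowest of the 3. The mean rose from 1.47 ± 0.307 to 473 ± 195 CPM (SD, n = 3 per group), which was 8.32 ± 0.48 (SE) as a log2 fold change (adjusted p = 0.000517 by edgeR). An RNA gene on the opposite strand, Gm14023, covers 11.2% of the Il1a exon bases but had only 67 counts over the 6 libraries, and 10% of the Il1a 31-base words also occur in other transcripts.

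Il1b, which encodes IL-1β, lies at chr2:129364570-129371139 (minus strand, ENSMUSG00000027398, 6 exon blocks), the next member along the chromosome from Il1a. Its counts were 0, 0 and 3 in control, so all 3 control libraries were at or under the floor of 3 counts, which corresponds to 0.124 to 0.133 CPM there. In LPS it had 8084, 8969 and 6150 counts, or 399, 500 and 322 CPM, a mean of 407 ± 89.2 CPM (SD, n = 3). Il1b was thus not detectable above the floor in any control library and far above it in every LPS library. Pooled over the 3 libraries of a group, 23203 counts stood against 3, a ratio of 9499 (95% exact interval 3250 to 46064, counting error only). The adjusted p by edgeR was 0.00026, and the fitted log2 fold change was 13.04. All 3 control counts came from replicate 3, so the pooled ratio rests on that library. Without it the fitted log2 fold change was 16.05, and such a fit to controls at 0 depends on the prior count.

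Il33 encodes the nuclear alarm cytokine IL-33 and lies at chr19:29925114-29960718 (plus strand, ENSMUSG00000024810, 10 exon blocks). It was the ligand with the highest control level. It was at 26.6, 27.5 and 21.1 CPM in control and at 24.6, 19.4 and 40.3 CPM in LPS. LPS replicates 1 and 2 sat among or below the controls and only replicate 3 was above them. The log2 fold change was 0.17 ± 0.28 (SE, 95% interval -0.53 to 0.86, adjusted p = 0.737 by edgeR), and it was -0.19 without LPS replicate 3 and -0.0025 with library size as the only scaling.

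Il18, which encodes the caspase-1 substrate IL-18, lies at chr9:50554827-50581840 (plus strand, ENSMUSG00000039217, 8 exon blocks). It was low throughout, at 1.06, 1.24 and 2.03 CPM in control and at 1.19, 1.23 and 8.48 CPM in LPS. Here too the difference between groups rested on LPS replicate 3, the library with the highest macrophage marker sum. The log2 fold change was 1.33 ± 0.86 (SE, 95% interval -0.78 to 3.44, adjusted p = 0.344 by edgeR), and it was -0.26 without that library. At this depth and spread a change in Il18 was not detectable, and the interval includes large changes.

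Transcripts of both antagonists rose, and counts per gene do not tell the starts of Il1rn apart. Il1rn, encoding the IL-1 receptor antagonist, lies at chr2:24336853-24351494 (plus strand, ENSMUSG00000026981, 6 exon blocks), in a cluster of IL-1 family ligand genes on the chromosome that also holds Il1a and Il1b. Its level was 7.67, 8.72 and 14.6 CPM in control and 62.2, 57.6 and 211 CPM in LPS. The groups did not overlap, and replicate 3 was the highest library of each group, as it was for the macrophage markers, whose part in this value was not tested. The mean rose from 10.3 ± 3.73 to 110 ± 87 CPM (SD, n = 3), which was 3.41 ± 0.63 (SE) as a log2 fold change (adjusted p = 0.0212 by edgeR). The call was lost without control replicate 1 (log2 fold change 3.24, adjusted p = 0.0915) or control replicate 2 (3.31, adjusted p = 0.106) and was kept in all the other alternatives. Without LPS replicate 3, its highest library, the log2 fold change was 2.53 (adjusted p = 0.00492).

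Il18bp, which encodes the soluble trap for IL-18, lies at chr7:102014885-102018690 (minus strand, ENSMUSG00000070427, 4 exon blocks). Its control libraries were nearly level at 1.86, 1.77 and 1.94 CPM, and the LPS libraries were at 11.7, 14.2 and 22.8 CPM. All 3 LPS values were above all 3 controls, replicate 3 being the highest. The mean rose from 1.86 ± 0.0859 to 16.2 ± 5.83 CPM (SD, n = 3), which was 3.12 ± 0.29 (SE) as a log2 fold change (adjusted p = 0.00263 by edgeR). The neighbouring gene Numa1 overlaps 80 bases (2.64%) of the Il18bp exons on the opposite strand and had 19820 counts over the 6 libraries, so part of the low control level is uncertain.

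All 3 receptor chains rose, with smaller log2 fold changes and smaller standard errors than Il1a and Il1b. Il1r1, the signalling receptor for IL-1α and IL-1β, lies at chr1:40225080-40317257 (plus strand, ENSMUSG00000026072, 15 exon blocks). It was at 35.6, 38.2 and 38.5 CPM in control and at 87, 88.4 and 66.2 CPM in LPS. The control libraries lay close together and the lowest LPS library was well above them. The log2 fold change was 1.10 ± 0.13 (SE, adjusted p = 0.00542 by edgeR).

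Il1rap encodes the accessory chain shared by the IL-1 and IL-33 receptors and lies at chr16:26581704-26730117 (plus strand, ENSMUSG00000022514, 14 exon blocks). It was at 28.9, 30.7 and 36.5 CPM in control and at 142, 153 and 127 CPM in LPS. Il1rap had the smallest standard error of the 10 members, and its groups were far apart. The mean rose from 32 ± 3.95 to 141 ± 13.4 CPM (SD, n = 3), which was 2.14 ± 0.12 (SE) as a log2 fold change (adjusted p = 0.000544 by edgeR).

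Il1rl1 encodes ST2, the IL-33 receptor, which has a membrane form and a secreted form that captures IL-33. The gene lies at chr1:40429570-40465415 (plus strand, ENSMUSG00000026069, 13 exon blocks), and counts per gene do not tell the forms apart. It was at 3.05, 2.48 and 4.38 CPM in control and at 21.3, 18.5 and 18.3 CPM in LPS. The LPS libraries were close to each other, replicate 3 included. The log2 fold change was 2.55 ± 0.23 (SE, adjusted p = 0.00255 by edgeR). The receptor for IL-33 therefore rose while the change of its ligand Il33 was not called, a difference between the genes that was not itself tested.

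The decoy receptor Il1r2 (chr1:40074079-40125231, plus strand, ENSMUSG00000026073, 11 exon blocks) was the scarcest member in LPS. It had 4, 3 and 2 counts in control, of which replicates 2 and 3 were at or under the floor, and 20, 29 and 11 counts in LPS. These counts correspond to 0.169, 0.133 and 0.0827 CPM in control and 0.988, 1.62 and 0.576 CPM in LPS. The groups did not overlap, but few reads support the control level. The log2 fold change was 2.99 ± 0.53 (SE, adjusted p = 0.0191 by edgeR). The call was lost without control replicate 1 (adjusted p = 0.0721) or 2 (0.0968), and without LPS replicate 1 (0.0635) or 2 (0.062), with fold changes from 2.56 to 3.24 on the log2 scale.

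**Figure D2:**
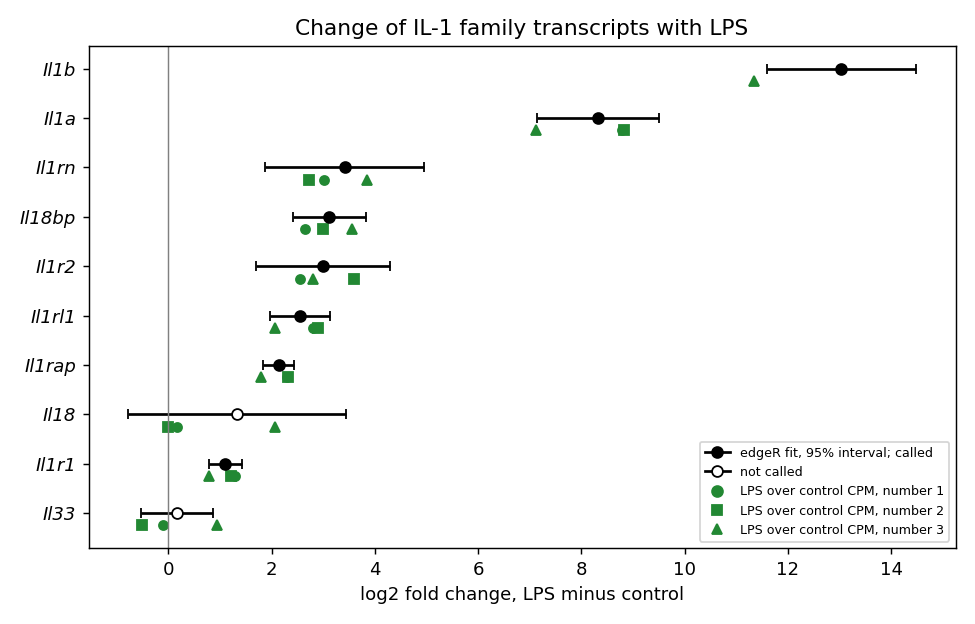
Log2 fold change (LPS minus control) of the 10 members from the edgeR fit with its 95% interval (black; filled where called, open where not called), and the log2 ratio of LPS to control CPM for libraries of the same number (green). Il1b has no green point for numbers 1 and 2 because those controls had 0 counts; the intervals of Il18 and Il33 include 0.

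The libraries carry replicate numbers, and changes within a number did not run in parallel for the family. For Il1a the log2 ratio of LPS to control was 8.78, 8.83 and 7.12 in numbers 1, 2 and 3, and Il1r1 (1.29, 1.21 and 0.78), Il1rap (2.30, 2.32 and 1.80) and Il1rl1 (2.81, 2.90 and 2.06) likewise had their smallest change in number 3. Il1rn (3.02, 2.72 and 3.85) and Il18bp (2.65, 3.0 and 3.55) had their largest change there, as did Il18 (0.16, -0.02 and 2.07) and Il33 (-0.11, -0.50 and 0.94). All of these but Il18 and Il33 had higher LPS than control values in every number, so the pairs differed in the size of the change and not in its direction, a description of 3 pairs of libraries. Without both libraries numbered 3, a check added after the data were seen, 8 members were again called higher and 0 lower (22.6% of all genes were then called higher). Where at least 10 counts were required in every library, 6 were called higher (8.71% of all genes), because Il1b and Il1r2 then have no value. On leaving out control replicate 1, 2 or 3, the count was 6, 6 and 8 (3.03%, 2.44% and 7.52% of all genes), and on leaving out LPS replicate 1, 2 or 3 it was 7, 7 and 8 (3.98%, 3.36% and 12.6%). With the replicate number as a block the same 8 were called and no others (15.4% of all genes called higher).

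Levels were compared between members per kilobase of exon, since a longer transcript gives more counts. In control the order of mean CPM per kilobase was Il33 (8.68), Il1r1 (5.89), Il1rap (2.82), Il1rn (1.87), Il18 (1.40), Il1a (0.746), Il18bp (0.614), Il1rl1 (0.479), Il1r2 (0.0673) and Il1b (0.0217). The ranges of the control libraries overlapped between Il1rap and Il1rn, Il1rn and Il18, Il1a and Il18bp, Il18bp and Il1rl1, and Il1r2 and Il1b. Ranges do not compare both genes within a library, so an overlap does not show that such neighbours are level. In LPS the order was Il1a (240), Il1b (213), Il1rn (19.9), Il1r1 (12.7), Il1rap (12.4), Il33 (9.74), Il18bp (5.35), Il18 (3.52), Il1rl1 (2.81) and Il1r2 (0.556). There the only neighbours whose ranges did not overlap were Il1b above Il1rn and Il1rl1 above Il1r2. Among all genes tested, Il1a went from percentile 16.5 of CPM per kilobase in control to 99 in LPS and Il1b from 0.303 to 98.8, while Il1r1 went from 54.9 to 73 and Il33 from 65.4 to 66.5.

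The balance between activators and inhibitors was followed as 3 ratios of CPM per kilobase within each library (0.5 counts added to each gene), each tested with a two-sided exact permutation test. The ratio of the antagonist Il1rn to the summed agonists Il1a and Il1b was 2.16, 2.20 and 2.62 in control and 0.0232, 0.018 and 0.128 in LPS. Antagonist RNA exceeded agonist RNA in every control library and was far below it in every LPS library, although Il1rn itself rose. The mean log2 ratio went from 1.21 ± 0.15 to -4.73 ± 1.54 (SD, n = 3), a difference of -5.94 (exact permutation p = 0.1), and of -6.82 without LPS replicate 3. The ratio of the decoy Il1r2 to Il1r1 was 0.0178, 0.0135 and 0.00894 in control and 0.0388, 0.062 and 0.0303 in LPS, a log2 difference of 1.69 (exact permutation p = 0.1, n = 3). Its control values rest on 4, 3 and 2 Il1r2 counts, and the log2 difference was 1.28 with 2 counts added to each gene. Decoy RNA stayed a small share of receptor RNA in every library. The ratio of Il18bp to Il18 was 0.595, 0.484 and 0.327 in control and 3.29, 3.85 and 0.913 in LPS, a log2 difference of 2.31 (exact permutation p = 0.1, n = 3), and LPS replicate 3 stood nearest to the controls. Without that library the log2 difference was 2.97. No ratio overlapped between groups, 0.1 is the smallest p that 3 against 3 libraries allow, and adjustment over the 3 ratios left each at 0.1.

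**Figure D3:**
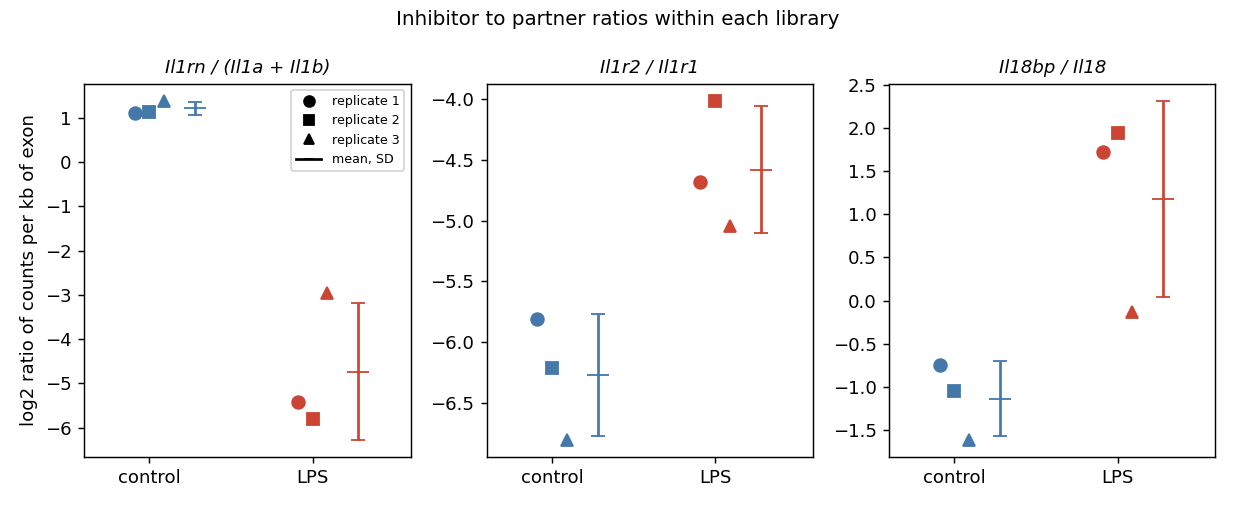
Log2 ratio of CPM per kilobase of exon in each library for 3 pairs of inhibitor and partner (Il1rn over Il1a plus Il1b, Il1r2 over Il1r1, Il18bp over Il18), with the mean and SD of 3 control (blue) and 3 LPS (red) libraries. The first ratio falls below 0 on the log2 scale with LPS and the other 2 ratios are higher in LPS, with no overlap between groups.

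Of the members, 3 lie in the receptor cluster of chromosome 1, where 6 receptor genes of the family follow each other on the plus strand over 478 kb in the order Il1r2, Il1r1, Il1rl2, Il1rl1, Il18r1 and Il18rap. Il1r2, Il1r1 and Il1rl1 were called higher, as given above. Between Il1r1 and Il1rl1, the gene Il1rl2, the receptor for IL-36, was at 25.7, 25.9 and 40.8 CPM in control and 47.7, 40.6 and 55.3 CPM in LPS, which was 0.64 ± 0.22 (SE) as a log2 fold change (adjusted p = 0.111 by edgeR, 0.0158 with the replicate block and 0.0229 without control replicate 3). Downstream of Il1rl1, the IL-18 receptor gene Il18r1 had at most 10 counts in any library and was not tested. Il18rap, its accessory chain, was at 4.07, 3.28 and 4.46 CPM in control and 15.9, 13.9 and 4.76 CPM in LPS, which was 1.55 ± 0.46 (SE) as a log2 fold change (adjusted p = 0.0731 by edgeR). LPS replicate 3 lay close to the controls, and Il18rap was called higher without it (1.92, adjusted p = 0.00277), with DESeq2 (0.00766) and with the edgeR exact test (0.0137). Both genes were called higher without the 2 libraries numbered 3 (adjusted p = 0.00083 for Il1rl2 and 0.000162 for Il18rap).

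**Figure D4:**
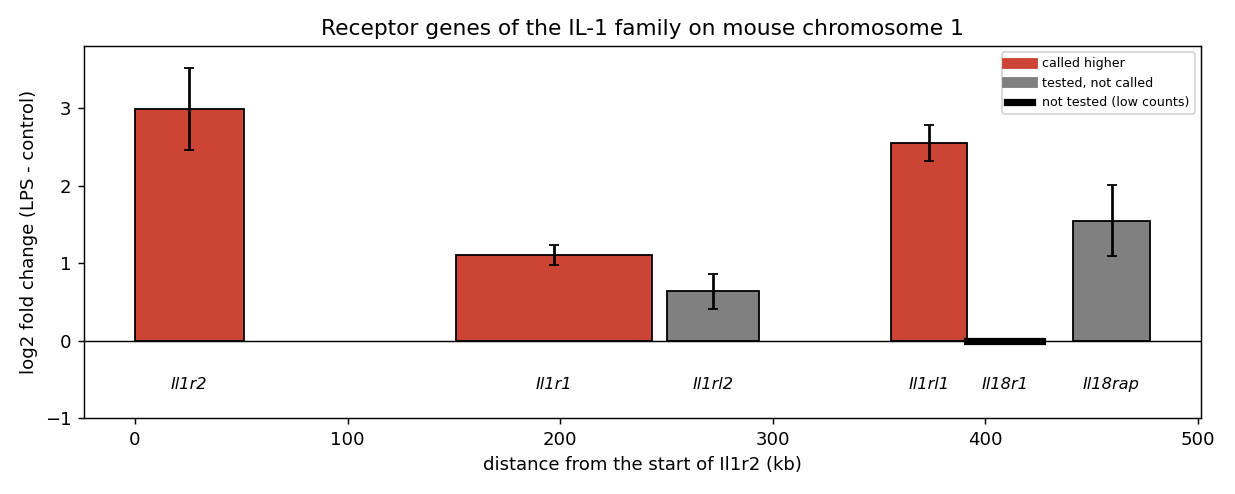
Log2 fold change (LPS minus control, error bars SE) of the 6 receptor genes on mouse chromosome 1 of GRCm38, drawn to scale by distance from the start of Il1r2 in kb. Il1r2, Il1r1 and Il1rl1 were called higher (red), Il1rl2 and Il18rap were tested and not called by edgeR's quasi-likelihood test (grey), and Il18r1 was not tested.

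Beyond the members, 54 other genes of the pathway were listed by role, and 45 had enough counts to be tested. Like the members, they were chosen with earlier results of these data known, so the shares over all genes do not test their counts. Of the 45 tested, 19 were called higher and 0 lower, with a median log2 fold change of 0.87, where 9.09% of all genes tested were called higher and 6.71% lower. Without control replicate 1 or control replicate 2, 9 were called higher in each case (3.03% and 2.44% of all genes). The count of 0 lower by edgeR was 1 at an unadjusted p under 0.05, 1 with DESeq2, 0 with the edgeR exact test and limma-voom, and 3 with the replicate block, under which 14.9% of all genes were called lower. The remaining ligands of the family were scarce. None of the 5 was tested with all libraries, and Il36b and Il36rn had 0 counts in all libraries. Il36g (listed as Il1f9), the highest by LPS mean, had 0, 1 and 0 counts in control and 21, 42 and 1 in LPS. Il1f10 was above it in every control and in LPS replicate 3, with 2, 2 and 6 counts in control and 13, 7 and 8 in LPS. Among these ligands 1 was called higher without LPS replicate 3 (12.6% of all genes) and 1 without both libraries numbered 3 (22.6%). Il36g, Il1f10, Gsdmd, Casp1, Pycard, Nek7, Capn2, Nlrp1b, Ikbkb, Myd88 and Vcam1 were named after their values were seen.

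Among the 13 genes of cytokine processing and release, 3 were called higher (9.09% of all genes tested). Nlrp3, the sensor of the inflammasome that activates caspase-1, was at 1.70, 2.92 and 8.89 CPM in control and 25.2, 31.2 and 68.9 CPM in LPS, which was 3.21 ± 0.73 (SE) as a log2 fold change (adjusted p = 0.0377 by edgeR). Casp4, which encodes the intracellular LPS sensor caspase-11, was at 5.68, 5.93 and 10.3 CPM in control and 60.1, 63.5 and 62.8 CPM in LPS, which was 3.08 ± 0.26 (SE) as a log2 fold change (adjusted p = 0.0019). The remaining call was Gsdmd, the pore former through which IL-1β leaves the cell (log2 fold change 1.48, adjusted p = 0.0105). The call of Nlrp3 was lost without any 1 of control replicates 1 and 2 and LPS replicates 1 and 2 (adjusted p = 0.103, 0.148, 0.0733 and 0.0977) and that of Gsdmd without control replicate 1 or 2 (0.0535 and 0.0613), while Casp4 kept its call without each library. Without control replicate 3, its highest control, the log2 fold change of Nlrp3 was 4.19. Casp1, whose product cuts IL-1β and IL-18, was at 9.83, 12.3 and 23.3 CPM in control and 27.8, 33.9 and 79.2 CPM in LPS, and its log2 fold change of 1.63 was not called (adjusted p = 0.0876, and 0.00142 with the replicate block). The adaptor gene Pycard had a log2 fold change of -0.02 (adjusted p = 0.988). Nek7, whose product is a partner of NLRP3, was at 165, 165 and 161 CPM in control and 137, 135 and 142 CPM in LPS. It was lower with no overlap but not called by edgeR (log2 fold change -0.25, adjusted p = 0.0506). Nek7 was called lower with DESeq2 (0.000812), with upper-quartile factors (0.02), with library size alone (0.0142), with the filter of 10 counts (0.0469), without LPS replicate 3 (0.0317) and without both libraries numbered 3 (0.0078). It was not called with RLE factors (0.0585), without a filter (0.109), with limma-voom (0.0509), with the edgeR exact test (0.282) or without any other single library (0.0857 to 0.197). Upper-quartile factors and library size alone moved the median gene to -0.12 and -0.18. With the replicate block 5 genes of this class were called higher and 3 lower, beside 15.4% and 14.9% of all genes. The 3 called lower were Nek7 (adjusted p = 0.0355), Capn2 (0.00718) and Nlrp1b (0.0347).

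Of 16 genes of signalling below the receptor, 3 were called higher (9.09% of all genes tested). Irak3, which encodes IRAK-M, an inhibitor of the IRAK kinases, was at 11.7, 13.3 and 16 CPM in control and 67.1, 87.5 and 217 CPM in LPS, which was 3.18 ± 0.49 (SE) as a log2 fold change (adjusted p = 0.013 by edgeR). Irak2 rose by 0.87 on the log2 scale (adjusted p = 0.0413) and the kinase gene Ikbkb by 0.49 (adjusted p = 0.0165). Myd88, the adaptor, was not called (1.03, adjusted p = 0.174, and 0.0127 with the block). The call of Irak3 was lost without control replicate 1 or 2 (adjusted p = 0.0677 and 0.0773), and its log2 fold change was 2.49 without LPS replicate 3. Those of Irak2 and Ikbkb were lost without either of these and without LPS replicate 1 or 2 (0.0697 to 0.153 for Irak2 and 0.0615 to 0.0938 for Ikbkb).

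Of 14 known target genes of IL-1 signalling, many of which LPS also induces through its own receptor, 13 were called higher (9.09% of all genes tested) and all 14 were higher with no overlap between groups (19.3%). The list was chosen with earlier results of these data known, so these shares stand beside the counts and do not test them. Without control replicate 1 or control replicate 2, 8 of the 14 were called higher in each case (3.03% and 2.44% of all genes), and limma-voom called 11 (8.21%). Lcn2, an iron-trapping acute-phase protein, was at 2.75, 2.21 and 0.62 CPM in control and 1645, 1643 and 264 CPM in LPS (log2 fold change 9.31, SE 1.09, adjusted p = 0.0055 by edgeR). Csf3, the granulocyte growth factor, had 0 CPM in control replicates 1 and 3 and 0.133 CPM in replicate 2, against 32.5, 43.4 and 20.4 CPM in LPS (adjusted p = 0.00159 by edgeR). The exception was Vcam1, at 131, 140 and 56.7 CPM in control and 661, 715 and 188 CPM in LPS (adjusted p = 0.0555, and 0.00232 with the block). In each of these 3 genes LPS replicate 3 was the lowest LPS library, as it was for Il1a.

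Genes with a pattern most like 2 of the members were named by a fixed measure, the root mean square difference of log2 CPM after centring each gene over the 6 libraries. Il1a was the ligand with the highest mean LPS level, though Il1b was above it in LPS replicate 3 (322 against 253 CPM). For Il1a the 5 nearest were Cxcl3 (0.313), H2-Q5 (0.452), Cfb (0.494), Csf3 (0.515) and H2-Q7 (0.555). For Il1r2, the receptor gene with the largest fitted change, they were Lif (0.174), Fam46a (0.219), Syt7 (0.227), Prelid2 (0.235) and Vegfc (0.257). A prior count of 2 was added on the log scale, which draws scarce genes such as Il1r2 toward smaller differences. The place of Il1r2 ahead of Il1rl1 by fitted change (2.99 ± 0.53 against 2.55 ± 0.23 as log2 fold change ± SE) rests on 2 to 4 control counts, and the order turned without control replicate 3 (2.77 against 2.82) and without LPS replicate 2 (2.56 against 2.58).

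The level of macrophage RNA was set beside the members, since macrophages are a well-known source of IL-1. In replicates 1 and 2 the summed 12 macrophage markers were about equal in LPS and control (4044 and 5240 CPM against 4107 and 5321 CPM), and in those same libraries Il1b went from 0 counts to 8084 and 8969. The sum hides opposite changes of single markers. In both numbers Adgre1, Ptprc, Fcgr1, Itgam and Aif1 were higher in LPS. Mrc1, Cd68, Cx3cr1, Lyz2, C1qa and C1qb were lower, and Csf1r was mixed. The log2 ratio of LPS to control was 2.58 and 2.46 for Adgre1 and -4.41 and -5.0 for Mrc1. Without Lyz2, the most abundant marker, the remaining 11 summed to 1219, 1831 and 4644 CPM in control and 1659, 2170 and 8725 CPM in LPS. By edgeR 1 of the 12 markers was called higher (Adgre1, log2 fold change 2.78, adjusted p = 0.0452, and 0.0663 to 0.169 without control replicate 1 or 2 or LPS replicate 1 or 2; 1.95 as a log2 fold change without LPS replicate 3) and 0 lower (1 lower at an unadjusted p under 0.05, 0 with DESeq2 and limma-voom, 1 with the edgeR exact test). These counts stand beside 9.09% of all genes called higher and 6.71% lower. Under the replicate block they were 4 and 3, beside 15.4% and 14.9% of all genes, and Mrc1 went from 197, 331 and 752 CPM in control to 9.29, 10.4 and 131 CPM in LPS. No macrophage marker was at 0 in any library, but Cx3cr1 had 4 and 3 counts in LPS replicates 1 and 2, the latter at the floor. It had 74 and 175 counts in control replicates 1 and 2. Il1rn, Il18bp, Il18 and Il33 had their highest LPS value in replicate 3, where the marker sum was highest, and Il1a, Il1b, Il1r1, Il1rap, Il1rl1 and Il1r2 their lowest. The part of macrophages in these values was not tested.

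**Figure D5:**
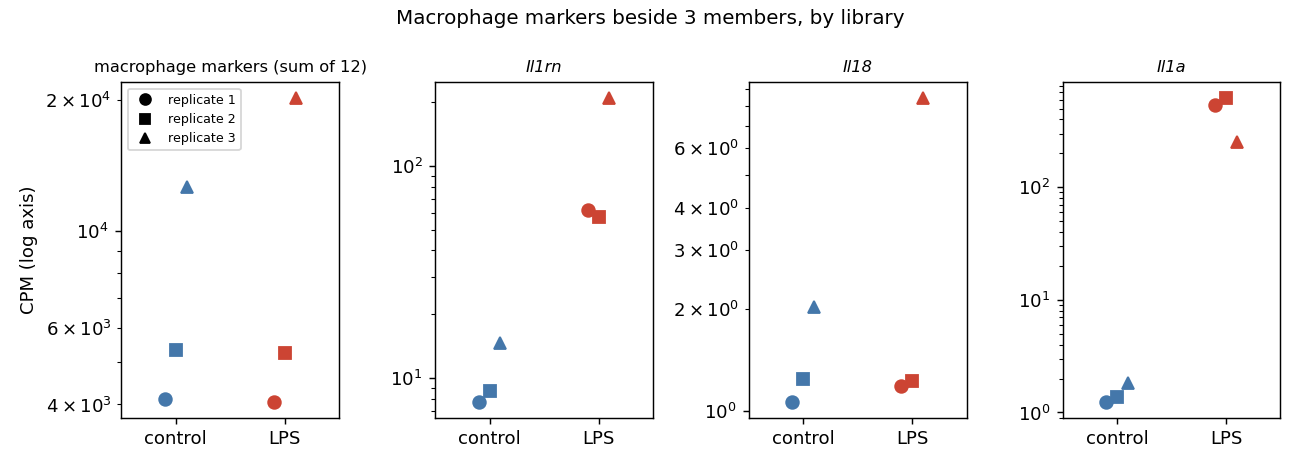
CPM (log axis) in each control (blue) and LPS (red) library of the summed 12 macrophage markers, Il1rn, Il18 and Il1a, with a symbol shape for each replicate. The marker sum of replicates 1 and 2 is at the same height in both groups, replicate 3 is highest for the markers, Il1rn and Il18, and LPS replicate 3 is the lowest LPS library for Il1a.

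Defining markers of several other cell types were scarce or absent, though 4 of those detected were called by edgeR. Of those tested, 1 of 2 neutrophil markers and 1 of 1 mast cell markers were called higher, beside 9.09% of all genes. Of the lymphoid markers 1 of 3 and of the endothelial markers 1 of 4 were called lower, beside 6.71% of all genes. None of the 3 epithelial markers tested was called. Of 8 neutrophil markers 6 were at or under the floor in all libraries, with sums of 3.09 to 14.1 CPM in control and 31.6 to 75.7 CPM in LPS that came mostly from S100a8 and Csf3r. S100a8 was called higher (log2 fold change 4.87, adjusted p = 0.0205), at 14.9, 13.5 and 4.03 CPM in LPS, a call lost without control replicate 1 or 2 or LPS replicate 1 or 2 (adjusted p = 0.0677 to 0.0957), and its log2 fold change was 6.33 without control replicate 3. Of 8 mast cell markers, a cell type known for ST2, 6 were at or under the floor in all libraries, with sums of 0.455 to 0.508 CPM in control and 2.62 to 3.45 CPM in LPS. Mcpt4, Tpsb2 and Fcer1a had 0 counts throughout, and Hdc, which encodes the histamine-forming enzyme, was called higher (3, 3 and 2 counts in control, 48, 48 and 63 in LPS, adjusted p = 0.000927), a call kept without each library. Of 8 lymphoid markers 4 were at or under the floor in all libraries, Cd3e and Cd3g at 0, and the list summed to 114 to 199.9 CPM in control and 37.4 to 117 CPM in LPS. Il7r was called lower (log2 fold change -2.11, adjusted p = 0.0291), a call lost without control replicate 1 or 2 or LPS replicate 1 or 2 (adjusted p = 0.0557 to 0.117), and its log2 fold change was -1.48 without control replicate 3. The 6 endothelial markers summed to 27.9 to 74.5 CPM in control and 15.6 to 30 CPM in LPS. Among them Vwf was called lower (log2 fold change -1.93, adjusted p = 0.043), a call lost without control replicate 2 or any 1 LPS library (adjusted p = 0.0729 to 0.135), and its log2 fold change was -1.28 without control replicate 3. The 6 epithelial markers summed to 5.14 to 12.1 CPM in control and 6.02 to 6.97 CPM in LPS. The part of these cell types in the members' values was not tested.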

How the data were processed

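Poly(A) RNA of 3 control and 3 LPS libraries was prepared with a stranded kit. The authors deposited raw counts for each gene, from reads on GRCm38 (mm10); the submitters' processing notes name cutadapt 1.15, Bowtie2 2.3.3.1, STAR 2.5.2b, SAMtools 1.5 and featureCounts 1.5.3. The strand setting and the handling of reads with several alignments are not given in the sources used here, so counts of overlapping genes and genes with shared sequence are uncertain. The series-wide table and the single-library tables held the same values in all 279618 cells, and 0 rows named no gene. Replicates were not pooled, no pair of libraries was identical, and replicates 1 and 2 of each group differed by more than sampling noise (chi-square per degree of freedom 7.13 in control and 7.54 in LPS).

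Genes were filtered with filterByExpr (minimum count 10, minimum total 15), scaled with factors of 0.917 to 1.08 by the trimmed mean of M-values (TMM), and tested with the edgeR 4.0.16 quasi-likelihood F-test in R 4.3.3, group as the only term, two-sided, Benjamini-Hochberg over 15226 genes. SE is the absolute log2 fold change divided by the square root of F, and intervals use its t distribution. CPM is counts per 1e6 of TMM-scaled library size; 3 counts, the floor, are 0.124 to 0.167 CPM. Floors and counting intervals leave out PCR copies. Coordinates, exon lengths and overlaps come from GENCODE M21 (GRCm38), in which 98.7% of identifiers were found; promoter windows come from RefSeq GRCm38.p6, with all 10 members matched. The scripts were tested on simulated data.

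Replicate numbers come from the labels, which do not say what they share. Deviations from group means correlated within numbers 1, 2 and 3 (r = 0.512, 0.334 and 0.613 over 15226 genes, which are not independent), all above 0.1, which met the limit set for treating the number as a pairing, and it was used as a block in an alternative. Control 1 with LPS 2 (0.419) and control 2 with LPS 1 (0.323) correlated about as closely as number 2 did, and pairs of number 3 with another number were at -0.564 to -0.396, so the values set number 3 apart and do not tell number 1 from number 2. The members and lists were chosen with earlier results of these data known. One listed glial marker is not reported here and is left out of the glial sum. All members are named, with up to 2 called higher and 2 called lower of each pathway class by largest absolute log2 fold change, and the 5 genes nearest to the most abundant called ligand or antagonist and to the receptor with the largest change. Alternatives were other scalings (RLE, upper quartile, library size), filters, DESeq2 1.42.0, the edgeR exact test, limma-voom 3.58.1, the block, 2 counts added to the ratios, leaving out each library, and, added after seeing the data, both libraries numbered 3.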

Additional observations from a re-analysis of the deposited data

How the results depend on the processing

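The count of 8 members called higher and 0 lower was the same under every scaling (RLE, upper-quartile, library size alone), without a filter, with DESeq2, the edgeR exact test and limma-voom, and with the replicate block; it was 6 where at least 10 counts were required in every library, because Il1b and Il1r2 then have no value, and 6 to 8 on leaving out each library. The median gene shifted to -0.12 under upper-quartile factors and to -0.18 under library size alone, less than the smallest called change of a member (1.10). Il33 and Il18 were not called in any of 16 alternatives, but changed sign: Il33 ranged from -0.19 to 0.37 and Il18 from -0.26 to 1.75 on leaving out each library, and Il33 was -0.0025 on the log2 scale with library size alone, -0.19 without LPS replicate 3 and -0.27 without both libraries numbered 3, and Il18 was -0.26 without LPS replicate 3, the cause of which was not tested. With the replicate block, calls over all genes went from 2406 to 4616, pathway genes called higher from 19 to 26 and lower from 0 to 3, and no member changed its call; with the pairing, each of the 3 ratios had an exact permutation p of 0.25, the smallest that 3 pairs allow. Pathway genes called lower were 1 under DESeq2 (11% of all genes), the filter of 10 counts (968 of 13817 genes), library size alone (2054 of 15226) and upper-quartile factors (1589 of 15226). They were 0 to 1 on leaving out each library (from 112 of 15564 to 1426 of 15626 genes), and 4 without both libraries numbered 3 (3159 of 15466). Pathway genes called higher were 9 to 24 on leaving out each library (9 without control replicate 1 or 2) and 29 without both libraries numbered 3, and the IL-1 target genes among them were 8 to 14 (8 without control replicate 1 or 2) and 14. Over all genes 2.44% to 12.6% were called higher on leaving out each library and 22.6% without both libraries numbered 3. Il1rn (2 alternatives) and Il1r2 (4 alternatives) lost their calls on leaving out a library, with 3.24 and 3.31 for Il1rn and 2.56 to 3.24 for Il1r2 on the log2 scale. Without LPS replicate 3 the log2 fold change of Il1rn was 2.53, and without control replicate 3 the fitted value of Il1b was 16.05. The 3 ratios kept their direction in all alternatives. On leaving out each library the log2 differences were -6.82 to -5.41 for Il1rn over its agonists, 1.41 to 1.93 for Il1r2 over Il1r1 and 1.93 to 2.97 for Il18bp over Il18. With 2 counts added to each gene they were -5.83, 1.28 and 2.28 in the same order. Depth limits Il1r2, whose controls had 2 to 4 counts, and Il1b, whose controls had 0 to 3.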
